A study of Mus musculus with 3 samples.

Results

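The genes for the protein subunits of the mitochondrial ribosome were examined for RNA polymerase II phosphorylated on serine 5 (Ser5 Pol_II) in mouse macrophages. They were taken by name as the protein-coding genes of GENCODE M1, on the mm9 assembly, whose symbol is Mrpl or Mrps followed by a number. This gave 76 genes of the 22349 protein-coding genes counted on chromosomes 1 to 19 and X. By symbol, 46 were assigned to the large subunit (Mrpl) and 30 to the small subunit (Mrps). The symbol alone decided this, so single proteins may belong to the other subunit or to neither. No measured value enters the rule for the 76 genes, which was set with earlier results of these data known. One of them, Mrps36-ps1, is annotated as protein-coding although its symbol marks a pseudogene, and it was kept and is named where it touches a count.

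The cells were primary bone marrow-derived macrophages (BMDM) of female Fvb mice (Fvb/Hsd in the study's methods), grown in medium conditioned by L929 cells and used at day 7 of differentiation. Ser5 Pol_II was immunoprecipitated with one antibody (ab5131) from untreated (UT) cells and from cells given 10 ng/ml LPS, the bacterial lipopolysaccharide that activates macrophages, for 2 h. Input DNA of untreated cells, sequenced without immunoprecipitation, was the third library. Every condition was 1 library, so no difference has a replicate check and no test was made. All intervals are 95% intervals for counting error alone. With bulk chromatin, fewer cells carrying Ser5 Pol_II at a gene and less of it per cell cannot be told apart.

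Mitochondria carry their own ribosome, which makes the few respiratory chain subunits that mitochondrial DNA encodes, while all of its proteins are encoded in the nucleus, made in the cytosol and imported. Many of these proteins descend from bacterial ribosomal proteins, and the others were added in the mitochondrial lineage. Ser5 phosphorylation of the repeated tail of Pol_II marks polymerase that has begun transcription and lies mostly near the transcription start site (TSS), so that a ChIP-Seq signal there reports engaged polymerase and not RNA.

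The libraries held 7616771 Ser5 tags in untreated cells, 6249819 after LPS and 7533308 in input, where a tag is one aligned read counted at its 5′ end. All 7 macrophage markers examined carried a Ser5 peak at the TSS in both libraries, and none of 22 markers of 6 other cell types did in either. All 10 LPS response genes examined had at least 2 times more tags in the library labelled LPS, by 2.62 to 186 times at the TSS. The tags were 45 bases long in the untreated library, 30 in the LPS library and 36 in input. An effect of tag length on the ratios between libraries therefore cannot be told apart from one of the condition.

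The stretches just before the start of these genes are shown first, since their letters do not depend on the ChIP-Seq measurement. Some of the genes shown, such as Mrpl41, were named by their Ser5 values. Each line gives the 150 bases before the annotated TSS, read 5′ to 3′ toward the gene, on mm9, for genes where no annotated exon overlaps them. The first set holds the core of the binding site of ETS factors, CCGGAAG, in capitals on either strand, close to the start. Mrpl22 also holds the end of the site of the nuclear respiratory factor NRF1, GCATGCGC, and Mrps22 the long GC box of Sp1, GGGGCGGGG, both likewise in capitals.
Mrps10, chr17:47505686-47505835, plus strand: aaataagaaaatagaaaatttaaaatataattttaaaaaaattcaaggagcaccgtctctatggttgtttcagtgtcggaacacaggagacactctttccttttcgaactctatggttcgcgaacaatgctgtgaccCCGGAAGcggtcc
Mrps16, chr14:21212778-21212927, minus strand: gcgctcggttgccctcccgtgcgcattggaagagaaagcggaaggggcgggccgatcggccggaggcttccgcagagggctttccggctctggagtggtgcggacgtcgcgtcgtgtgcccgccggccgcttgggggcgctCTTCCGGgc
Mrps18a, chr17:46247785-46247934, plus strand: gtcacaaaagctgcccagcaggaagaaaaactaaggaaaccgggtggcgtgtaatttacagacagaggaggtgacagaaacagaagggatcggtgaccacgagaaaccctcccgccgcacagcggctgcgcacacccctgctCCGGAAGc
Mrps22, chr9:98502099-98502248, minus strand: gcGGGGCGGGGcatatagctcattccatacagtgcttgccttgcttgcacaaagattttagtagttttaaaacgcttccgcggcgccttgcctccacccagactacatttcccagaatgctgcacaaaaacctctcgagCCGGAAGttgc
Mrpl22, chr11:57985013-57985162, plus strand: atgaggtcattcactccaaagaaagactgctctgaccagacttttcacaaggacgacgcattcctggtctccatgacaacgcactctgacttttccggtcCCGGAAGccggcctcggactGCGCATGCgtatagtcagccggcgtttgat

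The second set shows the other motifs searched. In Mrps28 the capitals mark the NRF1 end, in Mrpl36 the core of the YY1 site, AAGATGGC, on the minus strand of the gene, and in Mrps6 and Mrps36 the long GC box.
Mrps28, chr3:8923919-8924068, minus strand: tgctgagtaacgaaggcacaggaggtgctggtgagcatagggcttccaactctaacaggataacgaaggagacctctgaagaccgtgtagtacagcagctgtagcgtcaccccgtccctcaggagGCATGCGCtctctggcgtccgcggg
Mrpl36, chr13:73468307-73468456, plus strand: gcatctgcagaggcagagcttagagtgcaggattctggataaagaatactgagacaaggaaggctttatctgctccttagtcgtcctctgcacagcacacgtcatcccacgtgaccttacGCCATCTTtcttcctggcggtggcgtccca
Mrps6, chr16:92058365-92058514, plus strand: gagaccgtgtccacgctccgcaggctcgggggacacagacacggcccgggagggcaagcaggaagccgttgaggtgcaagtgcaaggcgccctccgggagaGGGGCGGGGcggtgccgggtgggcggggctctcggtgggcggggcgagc
Mrps36, chr13:101514615-101514764, minus strand: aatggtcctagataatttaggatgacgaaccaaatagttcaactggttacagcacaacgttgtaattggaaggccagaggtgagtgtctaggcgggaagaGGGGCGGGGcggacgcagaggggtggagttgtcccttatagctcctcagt

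The last set shows genes with none of these in 150 bases. Mrpl41 had the lowest LPS to untreated ratio at the TSS, and Mrpl12, the stalk protein that recruits translation factors, was among the genes with the most Ser5 tags.
Mrpl41, chr2:24830619-24830768, minus strand: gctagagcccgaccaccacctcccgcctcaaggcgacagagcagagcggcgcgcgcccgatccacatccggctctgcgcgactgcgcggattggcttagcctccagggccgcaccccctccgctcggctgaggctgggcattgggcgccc
Mrpl12, chr11:120345777-120345926, plus strand: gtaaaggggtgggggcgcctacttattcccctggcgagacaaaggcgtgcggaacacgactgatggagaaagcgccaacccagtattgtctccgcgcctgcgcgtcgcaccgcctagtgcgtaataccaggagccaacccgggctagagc

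Over the 250 bases before the TSS, on both strands, the ETS core was present in 19 of the 76 genes (25%), beside 8.23% of all protein-coding genes, 14.7% of the 10719 coding genes with an untreated Ser5 peak, 22.4% of cytosolic ribosomal protein genes and 12.3% of nuclear genes for respiratory chain subunits. Of its 20 matches, 17 began within 60 bases of the TSS, a distance chosen after the positions were seen. Within 60 bases 21.1% of the mitochondrial ribosomal protein genes held the motif (16 of 76), against 4.13% of all coding genes, 7.48% of those with an untreated peak, 11.8% of cytosolic ribosomal protein genes and 8.64% of respiratory chain genes. These matches are letters in a window and not measured binding.

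The NRF1 end was found in 6 genes (7.89%, all coding genes 2.72%, those with an untreated peak 4.56%), and the full NRF1 palindrome, which contains it, in 2 (2.63%, 0.895% and 1.65%). The YY1 core was found in 4 genes (5.26%, all coding genes 1.62%, those with an untreated peak 2.14%). In respiratory chain genes the NRF1 end was in 7.41%, the palindrome in 3.70% and the YY1 core in 1.23%. In cytosolic ribosomal protein genes they were in 2.63%, 0% and 2.63%. The intervals of these shares among the 76 genes were 2.95 to 16.4%, 0.320 to 9.185% and 1.45 to 12.9%. Each includes the share of coding genes with an untreated peak. The long GC box was in 11 genes (14.5%), close to the 13.4% of all coding genes and below the 20.5% of coding genes with an untreated peak. The short GC box GGGCGG, which the long form contains, was in 44.7%, above the 39.6% of all coding genes and below the 58.7% of those with an untreated peak. TATAAA was in 5.26%, beside 12.3% of all coding genes and 6.05% of those with an untreated peak. Of the 76 genes, 34 held at least 1 of the ETS, NRF1, YY1 and long Sp1 letters and 42 held none. The median GC content was 56.2% and the median ratio of observed to expected CpG 0.741, beside 59.2% and 0.739 in coding genes with an untreated peak and 54.0% and 0.496 in all coding genes.

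**Figure D1:**
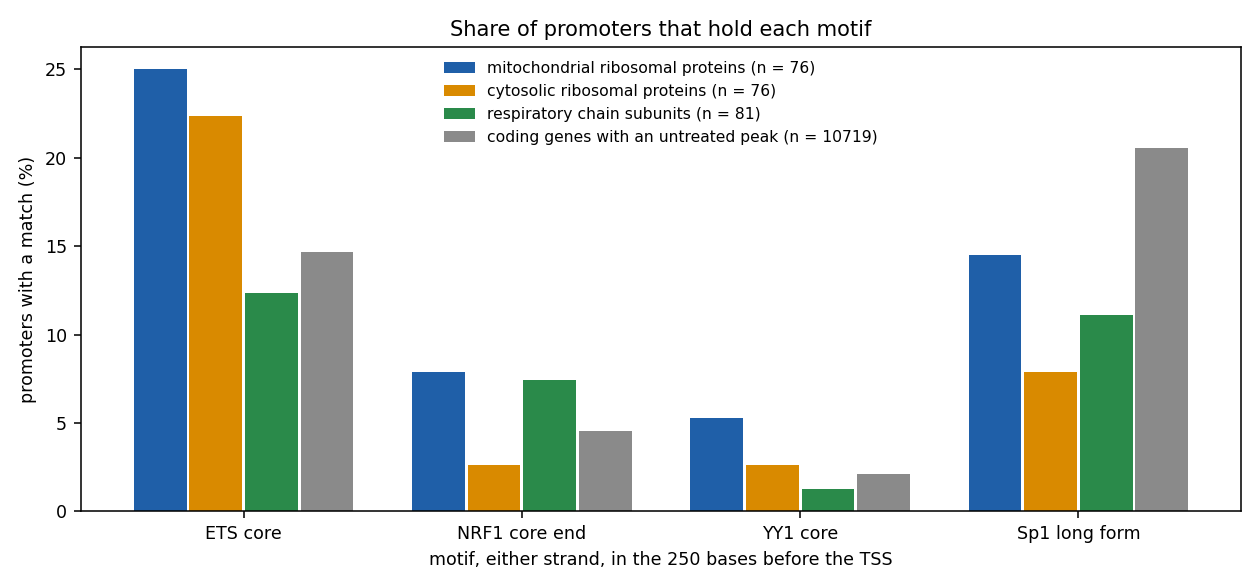
Bars show the percentage of promoters with a match on either strand in the 250 bases before the TSS, for each motif (horizontal axis) and gene set (colours). The ETS core is in 25% of the mitochondrial ribosomal protein genes and 14.7% of coding genes with an untreated peak, whereas the long Sp1 form is in 14.5% and 20.5%.

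A feature of the genomic layout was pairing with another gene. The TSS of 28 of the 76 genes (36.8%) lay within 1 kb of the TSS of a coding gene on the other strand, here called head-to-head, beside 10.9% of all coding genes, 20.3% of coding genes with an untreated peak, 15.8% of cytosolic ribosomal protein genes and 33.3% of respiratory chain genes. Among the partners were Sars2, the mitochondrial seryl-tRNA synthetase, with Mrps12, and Ndufb5, a subunit of respiratory complex I, with Mrpl47. Fau, which encodes a cytosolic ribosomal protein fused to a ubiquitin-like one, was paired with Mrpl49. Mrpl46 and Mrps11 were paired with each other, each beginning 412 bases inside the other. In such pairs the window around one TSS holds both promoters, so the tags there cannot be assigned to one gene, and 47 of the genes had no other coding TSS within 1 kb.

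Nearly all of the genes carried Ser5 Pol_II at their start in untreated macrophages. A deposited peak overlapped TSS ±1 kb in 74 of 76 (97.4%) in untreated cells, where 48% of all coding genes had one, and in the same 74 genes after LPS, where 45.9% of all coding genes had one. The sets most like this one also had a peak nearly throughout. In untreated cells it was present at 98.7% of cytosolic ribosomal protein genes and 92.6% of respiratory chain genes, and after LPS at 100% and 92.6%. No mitochondrial ribosomal protein gene had a peak in only 1 library, which 3.11% of all coding genes had in untreated cells only and 1.01% after LPS only. No respiratory chain gene did either, and 1 cytosolic ribosomal protein gene had one after LPS only. The 2 without a peak were Mrpl33 and Mrps36-ps1. The median peak was 779 bp long before and 701 bp after LPS, shorter than the 1328 and 1135 bp at cytosolic ribosomal protein genes.

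Levels are given as tags per 1000000 tags of the library (TPM, here tags and not transcripts). Within TSS ±1 kb the median of the 76 genes was 21.3 in untreated cells, 18.6 after LPS and 2.52 in input. The same medians over all coding genes were 1.71, 1.44 and 1.33. Untreated Ser5 stood at a median of 9.85 times input, beside 7.46 over all coding genes with at least 10 tags in both libraries together and 17.8 over cytosolic ribosomal protein genes. The value depended on scaling and window, and was 18.8 when scaled to tags outside the peaks and 15.4 in TSS ±500 bp. At least 2 times more tags than in input were found at 74 of 75 genes (98.7%), where 71.9% of coding genes were past that size, the exception being Mrpl33. Against genes that carry a peak the level was ordinary: the median of the 74 was 21.6 TPM and that of all 10719 coding genes with an untreated peak 23.1. The spread was narrower, since the upper quartile was 1.85 times the lower one among the 74 and 2.61 times among the 10719. It was also narrow in the sets most like this one, 1.56 times in cytosolic ribosomal protein genes and 1.90 times in respiratory chain genes with an untreated peak. Only 3 of the 74 lay in the top 10% of those genes and 2 in the bottom 10%.

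**Figure D2:**
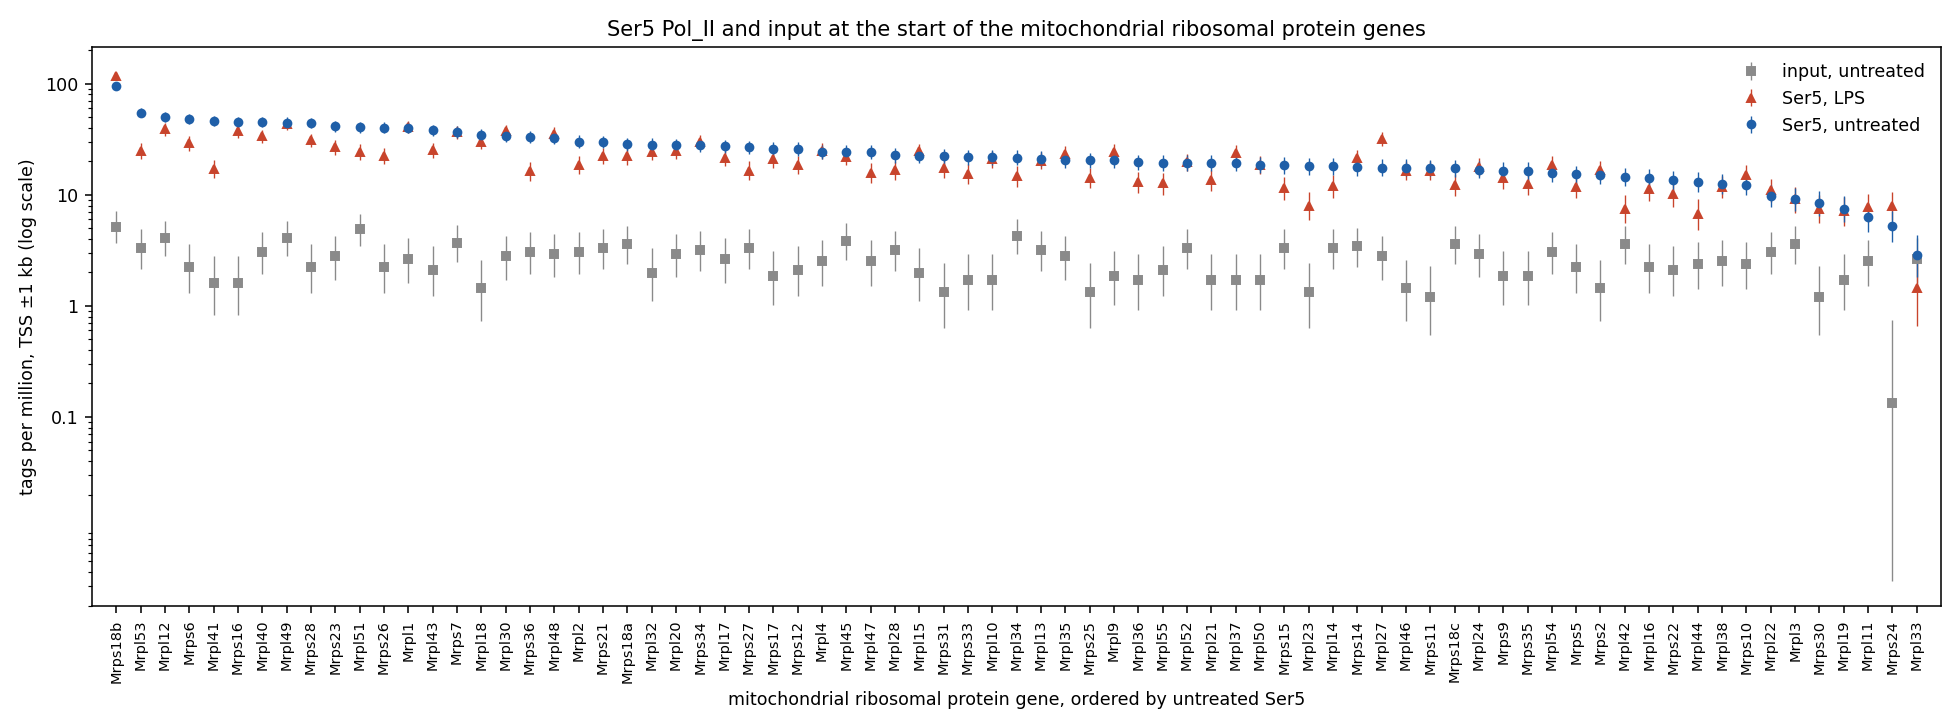
Each of 75 genes (horizontal axis) is shown with its TPM in TSS ±1 kb (vertical axis, log scale) in untreated Ser5 (circles), Ser5 after LPS (triangles) and untreated input (squares), and the bars are exact Poisson 95% intervals. Mrps18b leads at 94.9 in untreated cells, Mrpl33 is the only gene shown whose Ser5 lies at the level of input, and Mrps36-ps1, with 0 untreated tags, is not drawn.

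Mrps18b had the most Ser5 Pol_II, with 723 tags in the untreated library, 729 in the LPS library and 39 in input. It is one of the 3 mitochondrial forms of bacterial protein S18. Its peak was also the longest of all, 6073 bp before and 6456 bp after LPS. The next longest untreated peaks were those of Mrps26 (2216 bp), Mrpl53 (1828 bp) and Mrpl41 (1757 bp). The Mrps18b window holds the start of Ppp1r10, which encodes a nuclear regulator of protein phosphatase 1 and begins 45 bases upstream on the other strand. The body of Ppp1r10 had 1885 and 1615 Ser5 tags before and after LPS, and that of Mrps18b 218 and 172. The other forms of S18 had lower levels: Mrps18a 217, 139 and 27 tags at the TSS in untreated Ser5, LPS Ser5 and input, and Mrps18c 132, 77 and 27. LPS to untreated ratios at the TSS were 1.23 (interval 1.11 to 1.36) for Mrps18b, 0.781 (0.626 to 0.970) for Mrps18a and 0.711 (0.530 to 0.949) for Mrps18c. There the interval lay above 1 for the first and below 1 for the others. Over the gene bodies the ratios were 0.962, 0.894 and 0.829 in the same order. From 1 kb downstream of the TSS they were 0.812, 0.998 and 0.940, with intervals that all included 1. The ratio of Mrps18b was thus above 1 at the shared window and not in these stretches.

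After Mrps18b came Mrpl53, a large subunit protein without a bacterial counterpart, with 418, 156 and 25 tags in untreated Ser5, LPS Ser5 and input. Mrpl12 had 384, 243 and 31 tags. Mrps6, the counterpart of bacterial S6, had 365, 181 and 17. Mrpl41, another large subunit protein without a bacterial counterpart, had 353, 107 and 12. In untreated cells these 4 stood at 16.5, 12.3, 21.2 and 29.1 times input, and in each the untreated level was above the LPS level. Mrps7, on the head of the small subunit, had 280, 228 and 28 tags, and Mrps12, at the decoding centre, 196, 116 and 16.

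The lowest levels lay at starts that the annotation places far from the coding transcripts, at repeated sequence, or at genes with small peaks. Mrps36-ps1 had 0, 2 and 2 tags in the same order of libraries, and only 48.8% of the positions in its window are unique over 30 bases, the length of the LPS tags. A count of 0 allows up to 0.394 TPM in the untreated library. Mrpl33, of the large subunit, had 22, 9 and 20 tags at its annotated start, which lies 17004 bases before the start of its coding transcript. At the latter it had 104, 70 and 21 tags. Mrps24, the counterpart of bacterial S3, had 40, 50 and 1 tags, so its ratio to input of 39.6 rests on 1 input tag, and at the start of its coding transcript, 7993 bases away, it had 151, 114 and 18. Mrpl11, of the site where translation factors are activated, had 48, 48 and 19 tags, and Mrpl19 57, 45 and 13, with peaks of 420 and 296 bp in untreated cells.

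Around the TSS the tags formed a narrow maximum. Each tag was moved 75 bp in its own direction for this count. For the 47 genes with no other coding start nearby, the bin from the TSS to 100 bp downstream was the highest, at a mean of 57.3 TPM per kb in untreated cells and 48.9 after LPS, while input had its own maximum of 1.84 in the bin before it. Downstream of the TSS lay 61.9% of the untreated Ser5 tags within 1 kb either side, 65.7% of those after LPS and 51.8% of input tags. In the 28 head-to-head genes the tags were split evenly, with 50.9% downstream in untreated cells and 50.7% after LPS. In 8355 coding genes with an untreated peak and no other start nearby, 58.8% lay downstream in untreated cells and 62.6% after LPS.

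**Figure D3:**
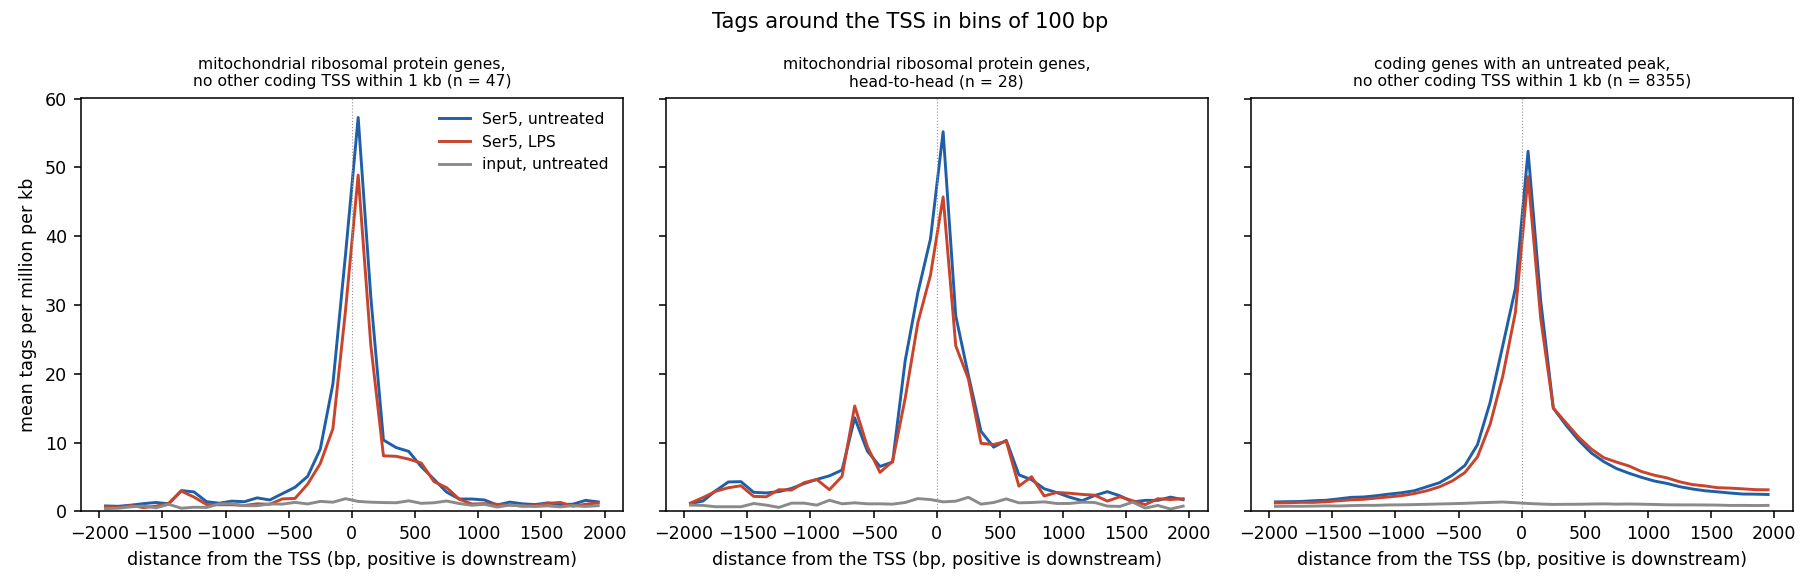
Mean TPM per kb (vertical axis) in bins of 100 bp are drawn against the distance from the TSS in bp for 47 mitochondrial ribosomal protein genes with no other coding TSS within 1 kb (left), 28 head-to-head ones (middle) and 8355 other coding genes with an untreated peak (right), in the 3 libraries. In Ser5 the highest bin is the first one downstream in all 3 panels, 57.3, 55.2 and 52.4 in untreated Ser5, and input stays near the bottom throughout.

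The density at the TSS exceeded that in the rest of the gene. In the 63 genes of at least 3 kb, tags per kb in TSS ±1 kb stood at a median of 9.80 times the density from 1 kb downstream to the gene end in untreated cells, and 9.82 times after LPS, with 1.98 times in input. The untreated ratio was 4.54 over all coding genes, 11.3 over coding genes with an untreated peak, 12.8 over respiratory chain genes and 4.23 over cytosolic ribosomal protein genes, whose density from 1 kb downstream was higher. That density had an untreated median of 4.17 TPM per kb in 43 cytosolic and 1.01 in the 63 mitochondrial ribosomal protein genes, and the medians at the TSS of the same genes were 19.2 and 10.3. The ratio was highest for Mrps28 (68.3), Mrpl40 (37.9) and Mrpl1 (37.8). Mrps28 has a body of 122 kb and Mrpl1, at the stalk where spent tRNA leaves, one of 57.2 kb. It was lowest for Mrps24 (0.737), Mrpl27 (1.08) and Mrpl19 (1.17), each of which overlaps another coding gene. The Mrps24 window also lies at an annotated start 7993 bases from the start of its coding transcript.

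After LPS the typical mitochondrial ribosomal protein gene had somewhat fewer Ser5 tags at its start, as the typical coding gene did. The median ratio of LPS to untreated TPM at the TSS was 0.809 over 75 genes with at least 10 tags in the 2 Ser5 libraries together, beside 0.831 over 12534 coding genes, 0.912 over cytosolic ribosomal protein genes and 0.830 over respiratory chain genes. The ratio was below 1 in 54 of the 75 (72.0%), and in 69.0% of all coding genes tested. None was at least 2 times higher after LPS, where 5.58% of coding genes were, and 5 (6.67%) were at least 2 times lower, where 14.1% of coding genes were. No cytosolic ribosomal protein or respiratory chain gene was 2 times higher either. At least 2 times lower were 0 of 76 and 2 of 77 of them. Of 10710 coding genes with an untreated peak, 332 were higher and 1399 lower by that size. The counting interval lay wholly below 1 in 33 genes (44%), where it did in 38.1% of all coding genes tested and 43% of those with an untreated peak. It lay wholly above 1 in 2 (2.67%), Mrpl27 and Mrps18b, where it did in 11.5% of all coding genes tested and 11.4% of those with an untreated peak.

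Scaling to tags outside the peaks, in place of all tags, multiplies every LPS to untreated ratio by 1.08 (0.11 on the log2 scale), which brings the median of all coding genes to 0.895 and that of the mitochondrial ribosomal protein genes to 0.871. Ratios were therefore also set against the median of all genes tested, which no scaling alters. On that footing 39 of the 75 lay below the median coding gene and 36 above it. Mrpl41 was at least 2 times lower at the TSS (9.23% of coding genes were) and Mrpl27 at least 2 times higher (8.27% of coding genes were).

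The 5 genes at least 2 times lower at the TSS were Mrpl41 (353 to 107 tags, ratio 0.369, interval 0.295 to 0.460), Mrpl23 (137 to 50, 0.445, 0.315 to 0.619), Mrpl53 (418 to 156, 0.455, 0.376 to 0.548), Mrps36 (251 to 102, 0.495, 0.390 to 0.626) and Mrpl33. Mrpl33 lies just inside the limit at 0.499, with an interval of 0.202 to 1.13 that includes 1, and at the start of its coding transcript the ratio was 0.820. Mrpl44 lay just outside it at 0.512. Under scaling to tags outside the peaks 3 genes were at least 2 times lower, Mrpl41 (0.398), Mrpl23 (0.479) and Mrpl53 (0.490), and with 1 tag per position and strand 3, Mrpl41 (0.416), Mrpl33 (0.443) and Mrpl23 (0.455). Shares of all coding genes at these settings are not given. Mrpl23 is a protein of the rim of the exit tunnel, and Mrps36 has since been assigned to the oxoglutarate dehydrogenase complex. The untreated peak of Mrpl41 was 1757 bp long and the one after LPS 760 bp. The start of Pnpla7, a lysophospholipase gene, lies 935 bases upstream of Mrpl41 on the other strand, and its body had 600 Ser5 tags before and 113 after LPS. Mrpl53 lies in the same place as Ccdc142, whose body had 649 and 246 tags. Whether the tags in these windows belong to the mitochondrial ribosomal protein gene or its neighbour was not tested.

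Mrpl27, whose bacterial counterpart reaches into the peptidyl transferase centre, stood apart in the other direction. At the TSS it had 134 untreated Ser5, 199 LPS Ser5 and 21 input tags, a ratio of 1.81 (1.45 to 2.27). Over its body it had 427, 738 and 43 tags, a ratio of 2.11 (1.87 to 2.38), and its peak was 846 bp long before and 4017 bp after LPS. Eme1, which encodes a subunit of a DNA repair nuclease, begins 197 bases inside Mrpl27 on the other strand, and its own body had 509 and 533 tags, a ratio of 1.28. Past the bases that Mrpl27 shares with Eme1 it had 381 and 696 tags, a ratio of 2.23 (1.96 to 2.53), and from 1 kb downstream of its TSS 330 and 576, a ratio of 2.13 (1.85 to 2.44). Both stretches were chosen after the values were seen.

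**Figure D4:**
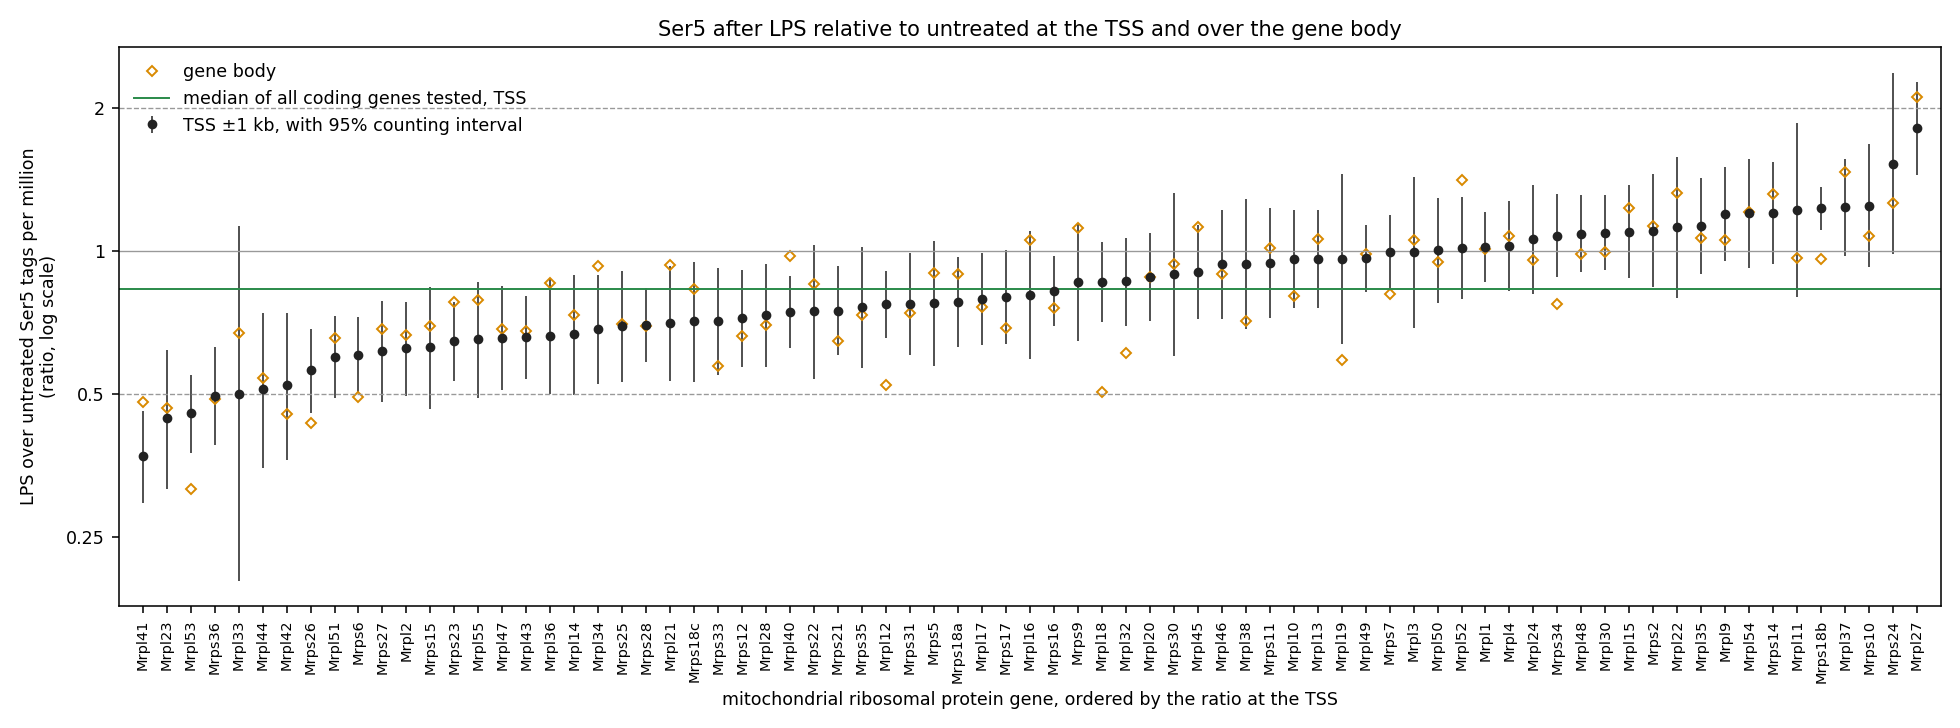
The ratio of LPS to untreated Ser5 TPM (vertical axis, log scale) is shown for 75 genes ordered by their ratio at TSS ±1 kb (filled circles, with exact 95% counting intervals) beside the ratio over the gene body (open diamonds). The green line marks the median of all coding genes at the TSS, 0.831, and the dashed lines the 2-fold limits. Mrpl41 is lowest at 0.369 and Mrpl27 highest at 1.81, and most genes lie between 0.5 and 1.

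Over the gene bodies, from first to last base, the median ratio was 0.829, beside 0.874 over 17385 coding genes, and 55 of 75 (73.3%) were below 1, where 63.5% of coding genes were. At least 2 times lower were 7 genes (9.33%), where 11.3% of coding genes were, and at least 2 times higher 1, Mrpl27, where 5.83% of coding genes were. Over the bodies of cytosolic ribosomal protein and respiratory chain genes, 0 of 76 and 2 of 79 were at least 2 times lower and none was 2 times higher. The counting interval lay wholly below 1 in 35 genes (46.7%), where it did in 34.5% of all coding genes tested and 45.7% of those with an untreated peak, and wholly above 1 in 5 (6.67%), where it did in 14.9% and 18.4%. Of the 7, Mrpl53 (190 to 49 tags, 0.314), Mrpl23 (201 to 77, 0.467), Mrpl41 (109 to 43, 0.481) and Mrps36 (235 to 94, 0.487) were also 2 times lower at the TSS. The others were Mrps26 (146 to 52 tags, 0.434), Mrpl42 (175 to 65, 0.453) and Mrps6 (646 to 261, 0.492). Their ratios at the TSS were 0.560, 0.521 and 0.604. Slc5a3, a myo-inositol transporter gene, begins just inside Mrps6 on the same strand, and its body had 429 and 181 tags, a ratio of 0.514. Under scaling to tags outside the peaks 3 genes were at least 2 times lower over the body, Mrpl53 (0.338), Mrps26 (0.467) and Mrpl42 (0.487). The share of all coding genes at that scaling is not given. Relative to the median coding gene, Mrpl53 and Mrps26 were at least 2 times lower over the body (7.48% of coding genes were) and Mrpl27 at least 2 times higher (7.98% of coding genes were). Counted from 1 kb downstream of the TSS, in genes of at least 3 kb, 10 of 63 (15.9%) were at least 2 times lower, where 11.7% of coding genes were, and Mrpl27 at least 2 times higher, where 6.42% were. The share lower was 13.45% in coding genes with an untreated peak and 15.4% (10 of 65) in respiratory chain genes. It was 0 of 43 in cytosolic ribosomal protein genes. The 10 were Mrps6 (428 to 140 tags, 0.399, interval 0.327 to 0.484), Mrpl42, Mrps26, Mrpl23 and Mrps36, and also Mrpl18, Mrpl19, Mrpl28, Mrps7 and Mrps33, whose ratios over the whole body were not past the limit. Among them Mrpl18, Mrpl28 and Mrps36 had only 11 LPS tags there. In 62 of the 75 genes the ratios at the TSS and over the body lay on the same side of 1, and the body includes the first kb of the TSS window.

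The median ratio was below 1 in both subunits, and in genes with and without a bacterial counterpart. Subunits follow the symbol alone, and Mrps36 is counted in the small one. The median LPS to untreated ratio at the TSS was 0.774 in 29 small subunit genes and 0.892 in 46 large subunit genes, with 23 of 29 and 31 of 46 below 1. It was 0.744 in 29 genes without a bacterial counterpart and 0.861 in 46 with one, with 23 of 29 and 31 of 46 below 1. Tags of the TSS windows summed over each subunit, counting shared positions once, gave LPS to untreated ratios of 0.828 (0.795 to 0.861) for the small subunit and 0.837 (0.809 to 0.865) for the large one, with overlapping intervals. Summed over gene bodies the ratios were 0.781 (0.751 to 0.812) and 0.900 (0.873 to 0.929), with intervals that did not overlap. Without Mrpl27 the large subunit had 0.843 (0.816 to 0.871) over gene bodies, an interval still above that of the whole small subunit. Without Mrps6 the small subunit had 0.813 (0.781 to 0.847). The intervals overlapped only with both genes left out, and both were picked after their values were seen. The untreated level was a median of 22.1 TPM in small and 20.9 in large subunit genes. The difference between the classes was not tested.

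**Figure D5:**
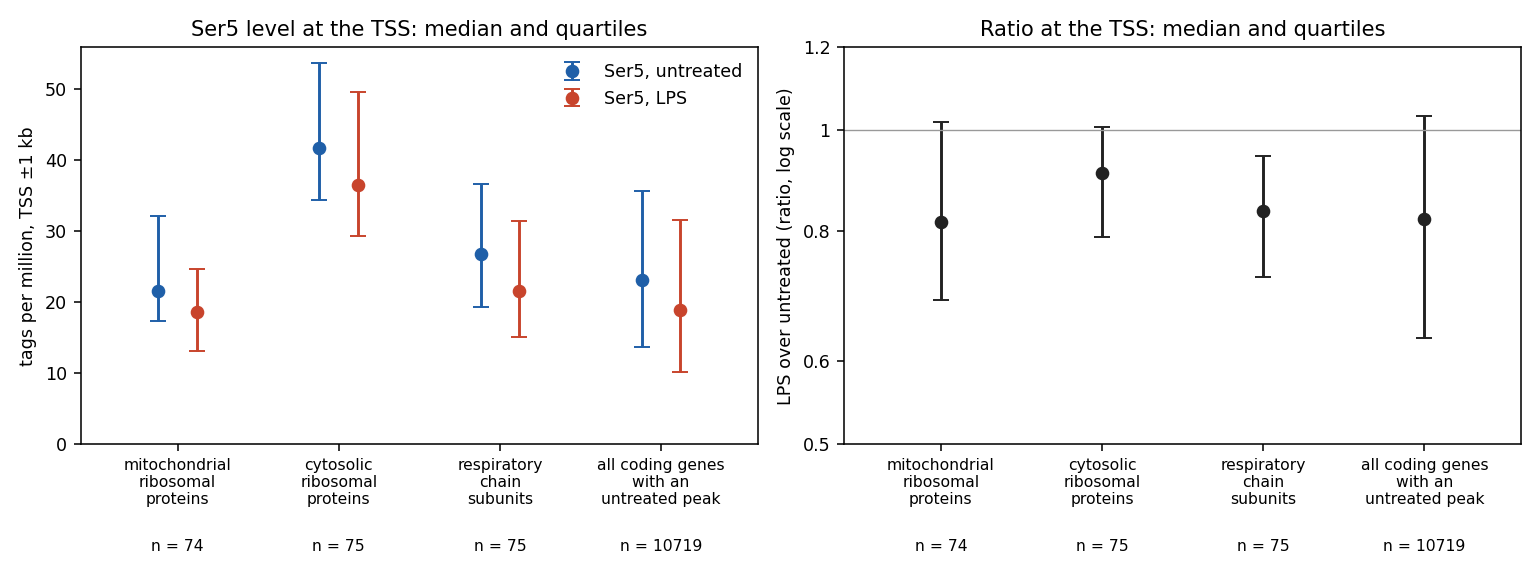
Points are medians and bars the lower and upper quartiles over the genes of each set that have an untreated peak, for TPM at TSS ±1 kb (left, untreated and LPS Ser5) and for the LPS to untreated ratio (right, log scale). Mitochondrial ribosomal protein genes have a median of 21.6 in untreated cells, near the 23.1 of all coding genes with a peak and below the 41.6 of cytosolic ribosomal protein genes, and their median ratio of 0.816 is near the 0.821 of all coding genes with a peak.

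The remaining machinery of mitochondrial gene expression was described from a list of 59 annotated genes, of which Nsun4 is annotated as a pair of genes. It includes ribosomal proteins without an Mrp number, translation factors, aminoacyl-tRNA synthetases, and assembly and transcription factors. A Ser5 peak was present at 57 of the 59 in untreated cells and at 57 after LPS, where 48% and 45.9% of all coding genes had one. The median LPS to untreated ratio over 58 genes was 0.787, beside 0.831 over all coding genes tested. None was at least 2 times higher, where 5.58% of coding genes were, and 2 were at least 2 times lower, where 14.1% were. These were Ftsj2, an rRNA methyltransferase gene (218 to 78 tags, 0.436), and Cars2, the cysteinyl-tRNA synthetase gene (326 to 121, 0.452). Next lowest was Tfb2m, a mitochondrial transcription factor gene (158 to 67, 0.517). The highest ratios were those of Mterfd3 (16 to 20 tags, 1.52, interval 0.750 to 3.14), Lars2, the leucyl-tRNA synthetase gene (65 and 65, 1.22, 0.851 to 1.75), and Tfam, which packages mitochondrial DNA (124 to 112, 1.10, 0.845 to 1.43), and all 3 intervals included 1. The medians were 0.855 in 7 further ribosomal protein genes, 0.751 in 11 translation factor genes, 0.761 in 19 synthetase genes and 0.842 in 21 assembly and transcription genes.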

How the data were processed

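Ser5 Pol_II ChIP-Seq tags of untreated and LPS-treated BMDM and input tags of untreated BMDM were analysed, with 1 library per condition. The authors shortened the reads from their 3′ ends, kept unique Bowtie matches on mm9, and called peaks with MACS in each Ser5 library against input at p 1e-05. Each deposited peak has a score, minus 10*log10 of p, with a lowest value of 50, and the deposited tag files give 1 aligned read per line, with duplicates kept. Versions are not given in the sources used here. The study's supplementary text gives the kept read lengths of the Ser5 libraries the other way round from the files, and the labels were followed.

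Tags on chromosomes 1 to 19 and X were counted by 5′ end in TSS ±1 kb (the annotated 5′ end of the gene) and over gene bodies of GENCODE M1, and scaled to 1000000 tags of the library. Ratios over genes need at least 10 tags in both libraries together. In the rule of size (2 times) 0 tags were set to 0.5. A peak counts when it overlaps the window by at least 1 bp. Intervals are exact at the 95% level (Poisson, conditional on the sum for ratios, or binomial for shares of genes) and cover counting error only. A count of 0 was given an upper limit of 3 tags. No test was made and no samples were averaged.

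Named genes are the 5 highest and 5 lowest in untreated Ser5 at the TSS, those past 2 times after LPS, those without a peak, the longest peaks, the 3 highest and 3 lowest in TSS to body density, the Mrps18 forms, and Mrpl12, Mrps12, Mrps7 and Mrpl11. Mrpl44, Mrpl18, Mrpl28, Mrps33 and the partner genes were named after their values were seen, as were Mrps10, Mrps16, Mrps22, Mrpl22 and Mrpl36, which are shown for their sequence. The 76 genes and all lists were chosen with earlier results of these data known, and 1 gene of the family is not reported here. In the list of other mitochondrial genes, Noa1 was not analysed. Sequences were read from the NCBIM37 (mm9) genome. Alternatives covered duplicates, tag shift, scaling, window, start, tag minimum, size rule, unique positions, peak strength and promoter length. Python 3.11.15, numpy 2.4.6, pandas 2.3.3, scipy 1.17.1, numba 0.67.0 and matplotlib 3.10.9 were used, and the counting and interval code was checked on simulated tags.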

Additional observations from a re-analysis of the deposited data

How the results depend on the processing

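No paired analysis was possible because each condition had 1 library. Of 97 values recomputed under alternatives, 83 stayed near the reported value. The other 14 moved beyond the interval of the median over genes or by over 1.5 times. Many of the 97 are counts of genes, which have no direction to change, and no median ratio crossed 1. The ratio of a single gene could cross it. Mrps24 had an LPS to untreated ratio of 1.52 at its annotated start and 0.920 at the start of its coding transcript. The median LPS to untreated ratio ranged from 0.804 to 0.888 at the TSS and from 0.821 to 0.892 over gene bodies. At the TSS it was 0.816 when only positions unique over 30 bases were counted, which does not address other effects of tag length. The number of genes at least 2 times lower at the TSS (5) was 3 with 1 tag per position and strand, 3 with scaling to tags outside peaks and 18 with a limit of 1.5 times. The number higher (0) was 1 with TSS ±500 bp, 1 with no tag minimum and 2 with a limit of 1.5 times. Over gene bodies the number lower (7) was 3 with scaling outside peaks, 17 at 1.5 times and 10 of 63 from 1 kb downstream of the TSS, and the number higher (1) was 2 with no tag minimum and 0 among genes without another coding TSS within 1 kb, since Mrpl27 is head-to-head. Except for the count from 1 kb downstream, shares of all coding genes at these settings are not given. These counts therefore show dependence on the setting and cannot be compared with other genes. The median Ser5 to input ratio was 18.8 with scaling outside peaks, where 49.9% of untreated Ser5 tags and 95.5% of input tags lie, and 15.4 with TSS ±500 bp. Without genes that have another coding TSS within 1 kb, 45 of 47 had a peak in untreated cells and 45 after LPS. Leaving out Mrps36-ps1, an alternative chosen after seeing the data, left 74 genes with a peak. That alternative could not move the medians or the 2-fold counts, since the tag minimum or the length limit already left this gene out. With 1 library per condition no value has an estimate of the spread between cultures, and single genes with few tags, such as Mrpl33, have wide counting intervals.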
